A study of Mus musculus with 2 samples.

Results

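The claudin family was followed through single cells of the mouse esophageal epithelium, across the layers of a wild-type library and the cell states of a library labelled p63-KO. The family was taken as 10 genes named in advance (Cldn1, Cldn3, Cldn4, Cldn6, Cldn7, Cldn8, Cldn10, Cldn12, Cldn18 and Cldn23), which are 10 of the 32 genes with a numbered Cldn symbol among 32285 features in the deposited matrices. The epithelium came from C57BL/6 embryos at E18.5, late in gestation, and each group had 1 library. The wild-type library was labelled p63-CreER and came from littermate controls, so that it carried the targeted allele too, and the p63-KO library was labelled p63-CreER/p63-CreER. The muscle layer had been removed and the epithelium taken apart with enzymes, and 3' ends of transcripts were counted as UMIs (unique molecular identifiers) in droplets. There was no replicate in either group, so no test between groups was possible, and every interval below covers counting error only.

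Claudins are small membrane proteins that span the membrane several times and polymerise into the strands of tight junctions, the belts that join neighbouring epithelial cells near their apical side. The claudins present decide whether the space between cells is sealed or passes selected ions. In stratified epithelia such as the epidermis, functional tight junctions lie in the upper layers, while several claudins are also made below them. Trp63 encodes p63, a transcription factor of the basal cells of stratified epithelia.

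Claudin transcripts were present in both libraries, but the set of claudins differed by layer and by state. In the wild-type library, Cldn3, Cldn4, Cldn7 and Cldn23 were higher from layer to layer towards the surface, Cldn1 and Cldn6 were higher in basal-like cells, and Cldn10 was present in every layer. In the p63-KO library, Cldn1 was close to absent, Cldn3 and Cldn23 were above every basal-like or cycling wild-type subcluster in each of 11 cell states, and Cldn6 was high in neuroendocrine-like and ionocyte-like cells. Cldn18, known from stomach and lung, had 3 wild-type and 4 p63-KO UMIs in all epithelial-like cells and was not measured in either library.

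After filtering and removal of called doublets, 5519 wild-type and 2375 p63-KO cells were kept, at median depths of 10921 and 19315 UMIs. Of these, 5362 wild-type cells (97.2%) and 1677 p63-KO cells (70.6%) were epithelial-like by marker genes, with medians of 11052.5 and 25277 UMIs. The p63-KO library also held 517 fibroblast-like, 72 endothelial-like, 74 smooth muscle or pericyte-like and 18 immune-like cells, whereas the wild-type library held 10, 1, 1 and 0 of these. Trp63 itself was at 302 CPM (UMIs per 1e6 UMIs) in wild-type and 118 CPM in p63-KO epithelial-like cells, 2.55-fold lower. Where the allele departs from the normal gene is not given in the sources used here, and 3' tags may lie outside that stretch, so this level does not check the labels. Krt5, the keratin of basal cells, had 767 CPM in wild-type and 0.236 CPM in p63-KO epithelial-like cells. The libraries shared 8 barcodes, 5 of them among kept cells.

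The wild-type epithelial-like cells formed 10 subclusters and the p63-KO cells 11, made without any claudin among the genes used for clustering. The wild-type layers began with a basal-like subcluster of 1301 cells and a basal-like subcluster of 357 cells led by Zbtb16. Then came a suprabasal-like subcluster of 629 cells led by Slit3 and another suprabasal-like one of 673 cells led by Serpinb3a. The last was a superficial-like subcluster of 403 cells. Trp63 was at 462, 170, 130 and 50.3 CPM in the larger basal-like, the Slit3-led, the Serpinb3a-led and the superficial-like subcluster, and Krt13, a keratin of differentiating esophageal cells, at 1269, 8295, 15743 and 19491 CPM. The Serpinb3a-led cells had 7 suprabasal and 3 superficial markers at least 2-fold above the other wild-type epithelial-like cells. Of these markers, only the superficial marker Tgm3 was among their leading genes. They are called by their leading gene below and placed between the others by their Trp63 and Krt13 levels. The p63-KO library had no subcluster that could be named basal-like. Its subclusters were 225 unnamed cells led by Cryab, 259 Krt13-high cells, cycling cells, and mucous-like, ciliated-like and ionocyte-like cells. There were also 3 neuroendocrine-like subclusters led by Chga, Gzma and Pyy. The Krt13-high cells, named superficial by marker genes, had 5668 CPM of Krt13. The Cryab-led cells had 0 Krt5 UMIs but 7265.5 CPM of Krt15 and 166 CPM of Trp63, which are also on the list of basal markers. Wild-type basal-like cells had 10362 and 473 CPM of these. Neither gene set the Cryab-led cells apart, since Krt13-high p63-KO cells had 7876 and 152 CPM. Krt15 was not confined to basal-like cells either, at 15409 CPM in wild-type superficial-like cells. By the naming rule, 0 basal markers were specific to the Cryab-led cells.

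The claudin genes lie mostly apart from each other in the genome (mouse build GRCm38, GENCODE M21). Cldn1 (ENSMUSG00000022512) is at chr16:26356642-26371841 on the minus strand, 464.539 kb from Trp63 on the same chromosome. Cldn3 at chr5:134986214-134987472 on the plus strand and Cldn4 at chr5:134945119-134946934 on the minus strand are single-exon genes with 39.279 kb between them. Cldn3 overlaps the antisense gene Wbscr25, and Cldn18 overlaps the antisense gene Gm16004; whether counting used the strand is not given, so their UMIs cannot be told apart from those of these partners with certainty. Cldn6 is at chr17:23679249-23682446 and Cldn7 at chr11:69964779-69967885, both on the plus strand. Cldn8 (chr16:88560828-88563183, a single-exon gene), Cldn12 (chr5:5489537-5514958), Cldn18 (chr9:99689461-99717267) and Cldn23 (chr8:35824712-35826559) are on the minus strand. Cldn10 (chr14:118787908-118875489, plus strand) holds 84991 intronic bases. Whether intronic reads were counted is not given either, and UMI counts are not scaled to length, so the level of each gene is compared between cells, and shares of the claudin UMIs are shares of UMIs as counted.

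The 250 bases before the start of transcription are shown for Cldn1, Cldn3 and Cldn4, the claudin that was lowest in p63-KO relative to wild type and a neighbouring pair that differed in opposite directions between the libraries. They are RefSeq sequences on GRCm38.p6, written 5′ to 3′ on the strand of the gene, with GC boxes (GGGCGG or its complement CCGCCC) in capitals. The windows are chr16:26371840-26372089 on the minus strand, chr5:134985964-134986213 on the plus strand and chr5:134946935-134947184 on the minus strand.
Cldn1: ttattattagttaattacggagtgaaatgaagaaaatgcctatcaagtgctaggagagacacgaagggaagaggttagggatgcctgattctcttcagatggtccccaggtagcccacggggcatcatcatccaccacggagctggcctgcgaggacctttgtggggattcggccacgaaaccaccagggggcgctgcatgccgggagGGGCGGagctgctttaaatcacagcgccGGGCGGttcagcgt
Cldn3: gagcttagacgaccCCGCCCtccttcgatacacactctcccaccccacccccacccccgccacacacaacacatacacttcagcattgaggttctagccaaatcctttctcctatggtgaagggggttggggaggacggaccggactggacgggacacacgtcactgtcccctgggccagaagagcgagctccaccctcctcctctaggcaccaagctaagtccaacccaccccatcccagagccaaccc
Cldn4: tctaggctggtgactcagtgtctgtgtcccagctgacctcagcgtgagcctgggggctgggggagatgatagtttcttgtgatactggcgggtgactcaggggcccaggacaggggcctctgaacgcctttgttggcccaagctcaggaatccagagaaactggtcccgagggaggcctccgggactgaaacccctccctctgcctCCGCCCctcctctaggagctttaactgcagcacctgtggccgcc

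Cldn1 had 2 GC boxes and Cldn3 and Cldn4 had 1 each, in a motif found on either strand in 32.7% of 32851 promoter windows of this length. Their GC content was 55.6%, 60.8% and 62%, against a median of 52.4% over all windows. The p53-family half-site, the motif to which p63 binds, was found in none of these 3 windows and in 7.13% of all windows. RefSeq windows matched 8 of the 10 members, several with more than 1 start site, and the half-site was found in 1 of these, a window of Cldn18. The grainyhead motif AACCGGTT, found in 0.116% of all windows, and the TATA motif TATAAA, found in 12.4%, were in none of the members' windows. These are matches of letters in the windows searched and say nothing about binding.

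The sealing claudins Cldn3, Cldn4 and Cldn7 had their highest wild-type levels at the surface. Cldn3, a strand protein that tightens the junction, had 7.41 CPM in the larger basal-like subcluster, 4.04 in the Zbtb16-led one, 45.2 in the Slit3-led and 355 in the Serpinb3a-led subcluster, and 1086 in superficial-like cells. Each step towards the surface lay beyond counting error, with folds of 6.10 (95% interval 4.80 to 7.83), 7.84 (7.01 to 8.80) and 3.06 (2.95 to 3.18). Superficial-like cells were 164-fold (134 to 201) above all basal-like cells, which had 6.64 CPM. After every cell was thinned to 2000 UMIs, 82.8% of superficial-like cells (78.8 to 86.4%) and 1.36% of basal-like cells (0.85 to 2.05%) had a Cldn3 UMI. As a background, 0.783% (0.214 to 1.99%) of fibroblast-like cells had one, a cell type without tight junctions, though these cells came from the p63-KO library, since the wild-type library held 10 of them. The low basal level makes the 164-fold ratio sensitive to any background in it.

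Cldn4, a partner of other claudins in sealing, and Cldn7, which binds the adhesion protein EpCAM, were present in basal-like cells and higher at the surface. Cldn4 had 76.4, 184, 342 and 470 CPM in the larger basal-like, the Slit3-led, the Serpinb3a-led and the superficial-like subcluster. Cldn7 had 83.6, 260, 399 and 563 CPM in the same order. All 6 of these steps were above counting error, and superficial-like cells exceeded all basal-like cells 6.41-fold (6.00 to 6.86) for Cldn4 and 7.26-fold (6.81 to 7.75) for Cldn7. Cldn23, a claudin of differentiated epithelial cells, had 1.55, 21.6, 81.5 and 164 CPM, and its superficial level was 108-fold (71.4 to 170) above the basal one of 1.53 CPM. Among thinned cells, 25.9% of superficial-like and 0.247% of basal-like cells had a Cldn23 UMI, beside 0.196% of p63-KO fibroblast-like cells.

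Cldn1, a claudin that the epidermal barrier needs, was highest below the surface. It had 34.0 CPM in the larger basal-like subcluster and 39.2 in the Zbtb16-led one, then 14.01 and 10.10 CPM in the Slit3-led and Serpinb3a-led subclusters and 3.43 in superficial-like cells, which were 10.2-fold (7.13 to 15.2) below all basal-like cells at 35.2 CPM. Cldn6, known from embryonic epithelia, was weak throughout: 7.84 CPM in the larger basal-like subcluster, 4.95 and 0.934 in the Slit3-led and Serpinb3a-led ones, and 1 UMI (0.111 CPM) in superficial-like cells against 99 UMIs (6.57 CPM) in all basal-like cells, a ratio whose counting interval ran from 10.4 to 2367-fold lower. Over all wild-type cells, 9 thinned cells, or 0.170%, had a UMI of both Cldn1 and Cldn3, against 0.682% if the genes had been spread independently over the cells. Within layers such cells were too few to show a difference, for example 2 in superficial-like cells (0.498% against 0.618%) and 1 in basal-like cells (0.0618% against 0.0948%).

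The remaining wild-type members had shallower courses. Cldn8, a sealing claudin of the distal nephron, was higher by 2.88-fold (2.26 to 3.68) from basal-like to Slit3-led cells and then ranged from 26.8 to 31.7 CPM, with neither later step beyond counting error. Cldn10, whose isoforms form ion-selective pores, had 305 CPM in the larger basal-like subcluster, 445 and 400 in the Slit3-led and Serpinb3a-led subclusters and 307 in superficial-like cells, so its superficial and basal-like levels differed 1.14-fold (1.08 to 1.19). Without the Zbtb16-led cells, a setting chosen after seeing the data, the log2 ratio of Cldn10 was 0.01 in place of 0.18. Cldn12, an unusual claudin without the tail motif that binds junction scaffolds, ranged from 3.88 to 8.20 CPM over the layers and cycling cells and was 1.92-fold (1.30 to 2.89) lower in superficial-like than in basal-like cells.

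Counted together, 5 of the 9 measured members (at least 5 CPM on either side) were at least 2-fold higher in superficial-like than in basal-like cells on the log2(CPM + 1) scale, and 2 were at least 2-fold lower. Over all 11073 genes measured, 12.7% were higher and 29.1% lower by this rule. The median log2 ratio was 1.43 over the members and -0.51 over all genes, so the typical gene was lower in superficial-like cells per UMI. Between cycling and basal-like wild-type cells, none of the 8 members measured there differed 2-fold, which is near the background of 4.65% of genes higher and 0.26% lower, with medians of -0.34 for the members and -0.01 for all genes.

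**Figure D1:**
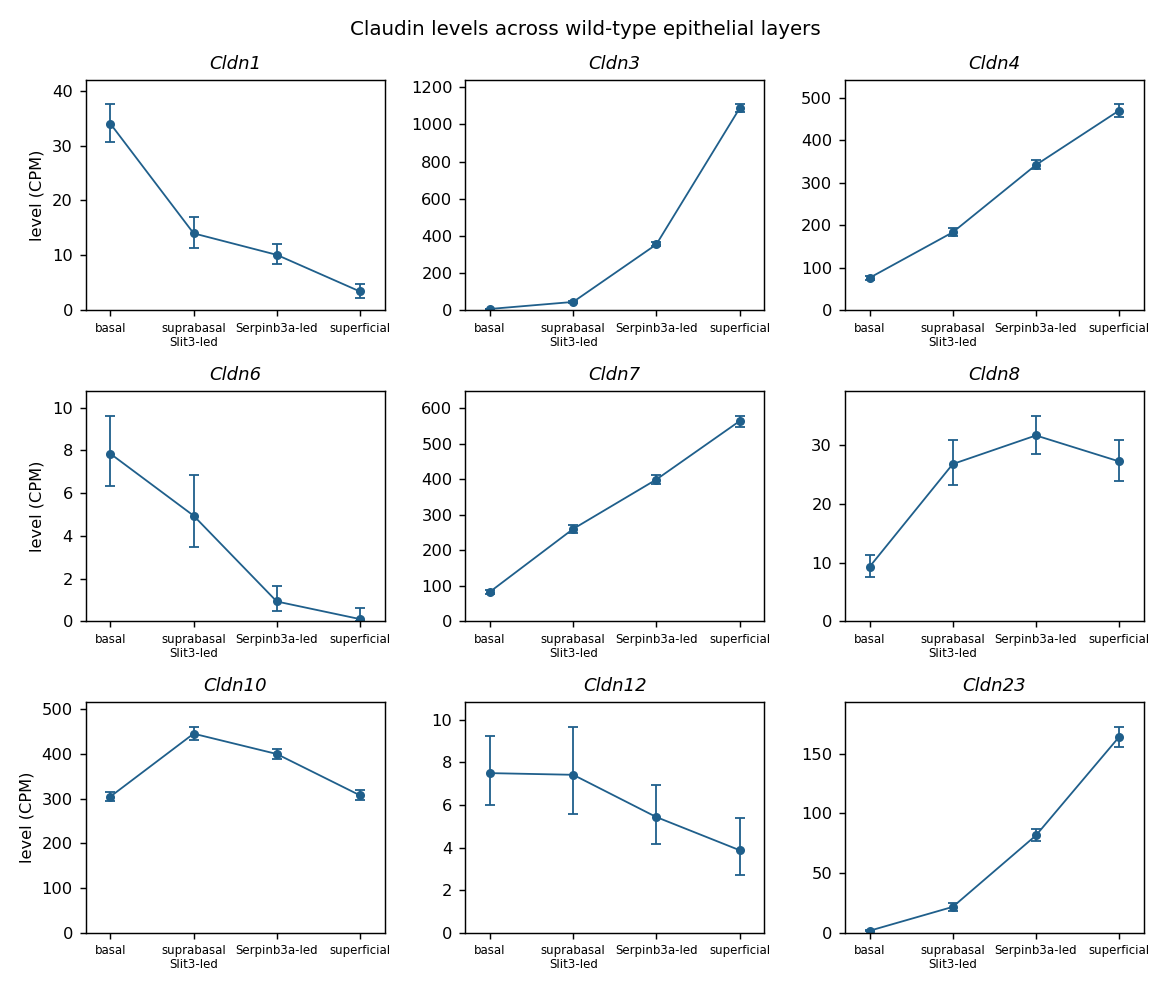
Level of each claudin (CPM, linear axes that start at 0 and differ between panels) in 4 wild-type subclusters from basal-like to superficial-like, 1 panel per measured member, with exact 95% Poisson intervals as bars. Cldn3 and Cldn23 climb from 7.41 and 1.55 CPM in the larger basal-like subcluster to 1086 and 164 CPM in superficial-like cells, while Cldn1 goes from 34.0 to 3.43 CPM.

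Summed over the 10 members, claudin UMIs made up 488 CPM in wild-type basal-like cells, 377 in S phase-like, 396 in G2 or mitosis-like, 1009 in Slit3-led, 1625 in Serpinb3a-led and 2625 (2592 to 2659) in superficial-like cells. The make-up of that sum changed with it, as the change in each gene's share between cell groups shows. Cldn10 gave 55.4% of the claudin UMIs in basal-like cells and 11.7% in superficial-like cells, Cldn3 gave 1.36% and 41.4%, Cldn7 15.9% and 21.5%, Cldn4 14.998% and 17.9%, and Cldn1 7.2% and 0.131%. Of thinned cells, 40.5% of basal-like and 1.49% of superficial-like cells had no UMI of any member.

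**Figure D2:**
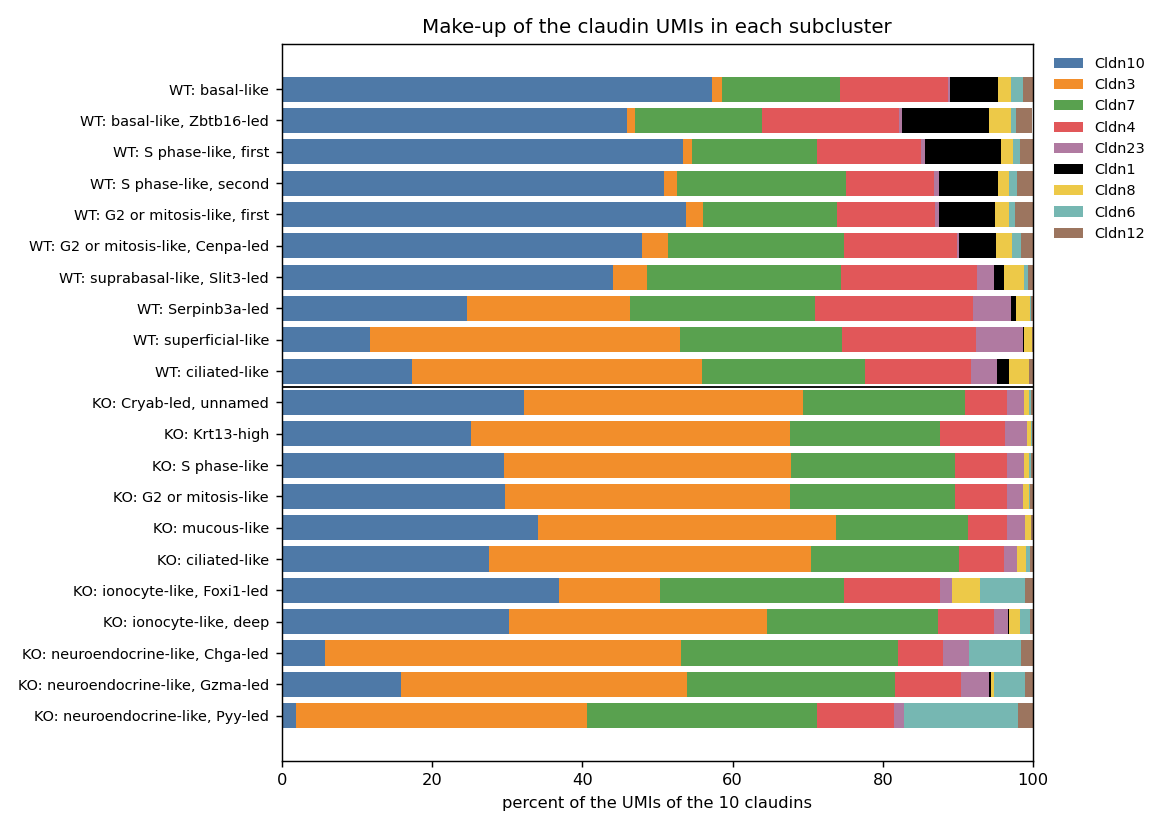
Share of all claudin UMIs (percent) given by each member in each wild-type and p63-KO subcluster, as stacked bars that start at 0 and add up to the whole, without Cldn18, whose share is too small to draw. Cldn10 takes 57.2% in the larger wild-type basal-like subcluster and 11.7% in superficial-like cells, where Cldn3 takes 41.4%.

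Between the libraries, Cldn1 differed most. The wild-type epithelial-like cells held 1513 Cldn1 UMIs, or 22.1 CPM (21.0 to 23.2), and the p63-KO cells 16 UMIs, or 0.222 CPM (0.127 to 0.361), which is 99.4-fold lower (61.0 to 174). The 16 UMIs came from 11 cells, and 6 of them from 1 cell of the Gzma-led subcluster. In 4 of the 11 p63-KO subclusters no Cldn1 UMI was found, and 10 of the 11 had less Cldn1 than any wild-type subcluster. After thinning, a Cldn1 UMI was in 4.77% of epithelial-like cells in wild type and in 0 of 1654 in p63-KO, which allows a p63-KO share of cells with a UMI at that depth of up to 0.181%. Unthinned, the 11 p63-KO cells with a UMI were 0.656% of 1677. The p63-KO fibroblast-like cells had more: 54 UMIs in 46 of 517 cells, or 9.38 CPM, so Cldn1 tags were recovered from this library outside the epithelium.

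Cldn3 was higher in p63-KO, at 618 CPM (613 to 624) against 225 CPM (221 to 228) in wild-type epithelial-like cells. Such summed levels weigh deep cells more. The p63-KO S phase-like and G2 or mitosis-like subclusters had medians of 70501 and 78925 UMIs, against 25277 over all p63-KO epithelial-like cells. With every cell weighing equally, the log2 ratio of Cldn3 between the libraries was 2.04 in place of 1.46. The difference was not the same against each layer. All 11 p63-KO subclusters, from 137 CPM in ionocyte-like cells led by Foxi1 to 876 CPM in Krt13-high cells, lay above the highest of the 6 basal-like and cycling wild-type subclusters at 17.1 CPM, and none lay above the superficial-like cells at 1086 CPM. Cldn3 was also found in more cells: 64.5% of thinned p63-KO epithelial-like cells had a UMI against 14.3% of wild-type ones, while unthinned shares were 95.7% and 26.9%. In p63-KO fibroblast-like cells, which had a median of 10809 UMIs, the shares were 0.783% thinned and 5.22% unthinned.

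Cldn4, which lies beside Cldn3 and was highest in the same wild-type layer, was lower in p63-KO over all epithelial-like cells. It had 110 CPM (107 to 112) in p63-KO and 178 CPM (175 to 181) in wild-type epithelial-like cells, 1.63-fold lower (1.58 to 1.67) and so short of a 2-fold difference. Its p63-KO subclusters ranged from 36.5 CPM in Pyy-led and Chga-led neuroendocrine-like cells to 178 CPM in Krt13-high cells. Against the 6 basal-like and cycling wild-type subclusters, at 42.6 to 76.4 CPM, 9 of the 11 lay above and 2 below, and none lay above superficial-like cells, so against these layers Cldn4 went mostly the same way as Cldn3. Thinned shares were 17.2% in p63-KO and 22.0% in wild type. The Pearson correlation of log2(CPM + 1) between Cldn3 and Cldn4 was 0.93 across the 10 wild-type and 0.53 across the 11 p63-KO subclusters, which within a library share 1 run and its depth, so these are descriptions only.

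Cldn6 was higher in p63-KO, with 667 UMIs (9.27 CPM, 8.58 to 10.0) against 238 UMIs (3.47 CPM, 3.05 to 3.94), 2.67-fold (2.30 to 3.11). In p63-KO, Cldn6 was highest in neuroendocrine-like and ionocyte-like cells, which formed no subcluster in the wild-type library. Leaving such high states out lowers the p63-KO level by construction, so the following values only describe the remaining cells. With ciliated-like, neuroendocrine-like and ionocyte-like subclusters left out of both libraries, a setting chosen after seeing the data, 1118 p63-KO cells had 2.96 CPM (2.53 to 3.44) and 5303 wild-type cells 3.55 CPM (3.11 to 4.03), below the 5 CPM needed to be measured. Cldn1 and Cldn3 had log2 ratios of -4.33 and 1.62 under that setting.

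The other members stayed within 2-fold between the libraries. Cldn7 had 336 CPM in p63-KO and 221 in wild-type cells, 1.52-fold higher, and Cldn10 had 474 and 290 CPM, 1.63-fold higher. Cldn8 was at 12.8 and 17.1 CPM, 1.34-fold lower, and Cldn12 at 5.57 and 6.64 CPM, 1.19-fold lower. Cldn23 was at 37.7 and 39.9 CPM, 1.06-fold lower (1.004 to 1.118). That near-equal total of Cldn23 hid different distributions: every p63-KO subcluster, from 4.71 to 60.9 CPM, lay above all 6 basal-like and cycling wild-type subclusters, which reached 2.43 CPM, and below the wild-type superficial-like cells.

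Of the 9 measured members, 2 (Cldn3 and Cldn6) were at least 2-fold higher and 1 (Cldn1) at least 2-fold lower in p63-KO epithelial-like cells, with a median log2 ratio of -0.08. Of all 11778 genes measured, 14.1% were higher and 7.9% lower, with a median of -0.02, so the number of claudins past 2-fold was near that background and is no result about the family. Claudin UMIs summed to 1603 CPM (1594 to 1612) in p63-KO and 1003 CPM (995.2 to 1010.2) in wild-type epithelial-like cells. Of thinned cells, 9.49% in p63-KO and 32.3% in wild type had no claudin UMI, and the mean number of members detected per thinned cell was 1.95 and 1.18.

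**Figure D3:**
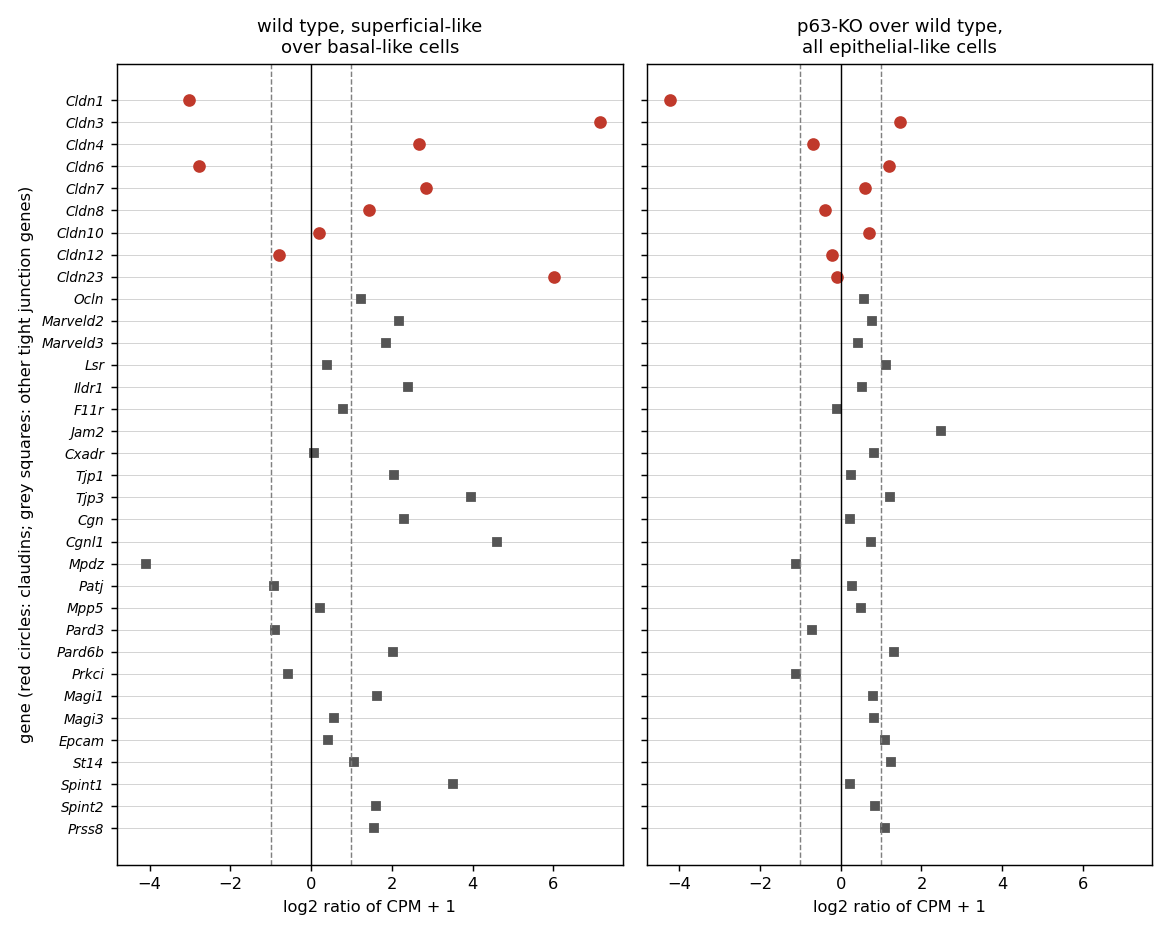
Log2 ratio of CPM + 1 for each measured member and for other tight junction genes, p63-KO over wild-type epithelial-like cells and wild-type superficial-like over basal-like cells, with dashed lines at 2-fold. Cldn1 lies at -4.24 between the libraries and -3.03 between the layers, while Cldn3 lies at 1.46 and 7.15.

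With no basal-like subcluster in p63-KO, its unnamed Cryab-led cells, which were neither cycling nor marked as a special cell type, were set beside wild-type basal-like cells. In them Cldn3 stood at 679 CPM, 102-fold (83.9 to 126) above wild-type basal-like cells, Cldn23 at 40.8 CPM, 26.7-fold (17.4 to 43.0) above, Cldn7 at 396 CPM, 5.10-fold above, and Cldn10 at 591 CPM, 2.18-fold above. Cldn1 had 2 UMIs, and the ratio of 101-fold lower had a counting interval of 27.8 to 835. Thus 4 of 9 measured members were higher and 1 lower, beside 13.7% and 10.7% of all genes, with medians of 0.46 for the members and -0.10 for all genes.

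The Krt13-high p63-KO cells were set beside wild-type superficial-like cells. The markers named these p63-KO cells superficial, with 4 superficial and 3 suprabasal markers at least 2-fold above the other p63-KO epithelial-like cells. Their leading genes, however, held more suprabasal than superficial markers. The Krt13 level of these p63-KO cells was 5668 CPM against 19491, so the pair was not matched in layer. Cldn3 was 1.24-fold lower and Cldn7 1.36-fold lower in them, while Cldn10 was 1.70-fold higher, at 522 CPM. Cldn4 was 2.64-fold (2.49 to 2.80), Cldn8 2.54-fold (1.997 to 3.27) and Cldn23 2.70-fold (2.44 to 2.98) lower. Of the 6 members measured there, none was at least 2-fold higher and 3 were lower, beside 17.6% and 7.92% of all genes, with medians of -0.86 for the members and 0.29 for all genes. Thinned shares with a Cldn3 UMI were 82.9% (77.8 to 87.3%) and 82.8%, whereas the shares with a Cldn4 UMI were 25.6% and 61.0%.

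**Figure D4:**
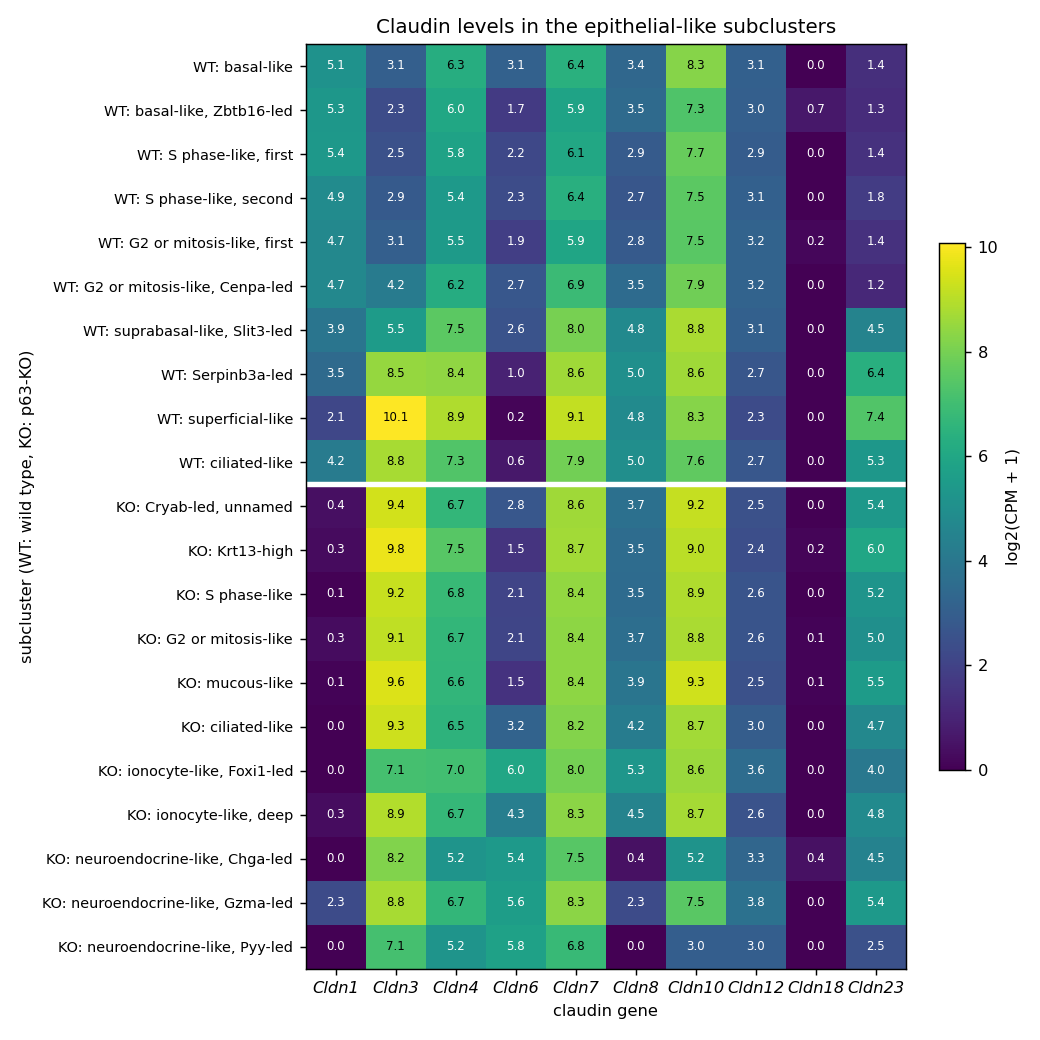
Heat map of each member's level (log2 of CPM + 1, printed in each cell) with the 10 wild-type subclusters above the white line, the 11 p63-KO subclusters below it and 1 column per gene. The Cldn1 column is near 0 in all p63-KO rows but the Gzma-led one (3.95 CPM), and the Cldn6 column is highest in the neuroendocrine-like and ionocyte-like rows.

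Neuroendocrine-like cells, which store and release hormones, differed by 2-fold or more from the other p63-KO epithelial-like cells in 5 claudins. Cldn6 was at 42.2, 48.0 and 54.2 CPM in the Chga-led, Gzma-led and Pyy-led subclusters, and at 45.8 CPM over them against 6.41 CPM in all other p63-KO epithelial-like cells, 7.15-fold higher (6.08 to 8.40). Thinned to 2000 UMIs, 9.36% of neuroendocrine-like cells (6.49 to 12.95%) and 0 of 511 fibroblast-like cells had a Cldn6 UMI, which allows a share of up to 0.587% in the latter. Cldn10 was 6.86-fold (6.20 to 7.61) lower in them, at 73.6 against 505 CPM, and Cldn8 was 10.2-fold (4.92 to 25.4) lower, at 1.34 against 13.7 CPM. Cldn3 (308 against 643 CPM) and Cldn4 (55.6 against 114 CPM) were 2.09-fold and 2.05-fold lower, close to the threshold. Of 8 measured members, 1 was higher and 4 were lower, beside 22.4% and 14.7% of all genes, with medians of -0.88 for the members and 0.16 for all genes. With no doublets removed, a setting chosen after seeing the data, Cldn3 and Cldn4 were within 2-fold (log2 ratios of -0.65 and -0.71) and 2 members were lower, and Cldn4 was at -0.97 with 5 CPM added.

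The 3 neuroendocrine-like subclusters were not alike. Cldn10 was at 183 CPM in Gzma-led, 35.1 in Chga-led and 7.07 in Pyy-led cells, and Cldn3 at 438, 289 and 138 CPM. The summed claudin level was 357 CPM in Pyy-led cells, of which 53.3% had no claudin UMI after thinning. At a higher clustering resolution the Pyy-led cells divided into 52 cells with 10270 CPM of Sst, the hormone somatostatin, and 12 cells with 0 UMIs of Pyy or Sst. Cldn6 was at 67.4 CPM (49.2 to 90.2) in the 52 cells, while the 12 cells had 1 Cldn6 UMI, 4 Cldn3 UMIs and 0 Cldn7 UMIs. The neural and glial markers were highest in this subcluster, with a summed level of 1068 CPM against 506 in the next, and their part in its low claudin level was not tested beyond that division.

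Ionocyte-like cells, which carry proton pumps and ion channels, had Cldn6 at 61.4 CPM in the Foxi1-led subcluster and 18.9 CPM in the one with more UMIs per cell. Over both, Cldn6 was at 35.7 against 6.63 CPM in all other p63-KO epithelial-like cells, 5.38-fold higher (4.57 to 6.32), and Cldn8 at 28.3 against 11.2 CPM, 2.52-fold higher (2.14 to 2.97). These were 2 of 8 measured members, none was lower, and 4.95% and 5.55% of all genes were higher and lower, with medians of -0.08 for the members and -0.01 for all genes. The 2 subclusters differed in depth, with medians of 23423 and 68252 UMIs, and in Cldn3, at 137 and 481 CPM. The deeper subcluster also had more of the keratins of other epithelial cells, with Krt13 at 2241 against 87.9 CPM, Krt15 at 4021 against 195 and Krt4 at 1223 against 54.1, and more Trp63, at 101 against 16.3 CPM; their part in its claudin levels was not tested. With cells over 50000 UMIs left out, a setting chosen after seeing the data, Cldn3 and Cldn23 were also lower in ionocyte-like cells, by log2 ratios of -1.83 and -1.36.

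In mucous-like and ciliated-like cells the number of members past 2-fold was near the background. Mucous-like cells had the highest Cldn10 of any subcluster, 650 CPM, with a UMI in 73.9% of thinned cells, and Cldn6 at 1.80 CPM, the 1 member at least 2-fold lower there beside 7.87% of all genes, with none higher beside 1.25%. In ciliated-like cells, which move fluid with motile cilia, none of the 8 measured members differed 2-fold from the other epithelial-like cells in either library, beside 13.5% of genes higher and 2.86% lower in p63-KO and 12.1% and 1.62% in wild type. Their Cldn3 level was 642 CPM in p63-KO and 437 CPM in wild type. In wild type the other epithelial-like cells had 219 CPM of Cldn3, a log2 ratio of 0.995 and so only just short of 2-fold.

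Pairs of members kept or lost their likeness between the libraries. Across wild-type and across p63-KO subclusters, the correlation was 0.95 and 0.82 for Cldn3 with Cldn7, 0.97 and 0.87 for Cldn4 with Cldn7, 0.96 and 0.88 for Cldn3 with Cldn23, and 0.70 and 0.95 for Cldn7 with Cldn10 (n = 10 and 11 subclusters). Cldn1 and Cldn3 had -0.90 in wild type and 0.14 in p63-KO, where Cldn1 was near 0 throughout. Cldn6 went against Cldn3 in both, with -0.80 and -0.86. Within superficial-like cells, joint detection showed no such structure: 201 of 402 thinned cells (95% interval 45.0 to 55.0%) had a UMI of both Cldn3 and Cldn4, against 50.5% if the genes were independent.

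Over all 21 subclusters of both libraries, the genes with the pattern most like each member were ranked by Pearson correlation of log2(CPM + 1) among 10586 genes. The pooled values mix differences within and between the libraries. Within a library they were lower for some genes: 0.59 for Cd109 and 0.67 for Rap2b with Cldn1 and 0.71 for Myh14 with Cldn3 across p63-KO subclusters, and 0.65 for Ctnna1 and 0.75 for Pdlim5 with Cldn10 across wild-type ones. For Cldn1 the genes were Cd109 (0.98), Pard6g (0.98) and Rap2b (0.97), and for Cldn3 the protease inhibitor Spint2 (0.96), Tspan33 (0.96) and Myh14 (0.96). For Cldn7 they were Bspry (0.98), Grb7 (0.97) and Llgl2 (0.97), for Cldn4 Hebp2 (0.95), Taldo1 (0.95) and Elf5 (0.94), and for Cldn10 Pdlim5 (0.96), Rbm47 (0.96) and the cadherin partner Ctnna1 (0.94). Cldn23 was most like Irf2 (0.96), Cldn7 (0.96) and Pdzk1ip1 (0.96). The weaker members had Rsrc2 (0.93), Ndrg3 (0.92) and Ano8 (0.92) for Cldn6, Zfp185 (0.92), Slc8b1 (0.91) and Dazap2 (0.90) for Cldn8, and March5 (0.91) and Zfp207 (0.88) for Cldn12.

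The other genes of the tight junction, 29 in the lists, were described beside the claudins. Between the libraries 27 were measured, of which 7 were at least 2-fold higher and 2 lower in p63-KO, beside 14.1% and 7.9% of all genes, with a median log2 ratio of 0.74 against -0.02. The higher genes were the tricellular protein Lsr (199 against 91.1 CPM, 2.18-fold), the adhesion protein Jam2 (6.53 against 0.336, 19.4-fold), the scaffold Tjp3 (52.9 against 22.2, 2.38-fold), the polarity gene Pard6b (36.7 against 14.1, 2.60-fold), Epcam (1252 against 585, 2.14-fold) and the membrane proteases St14 (145 against 60.6, 2.39-fold) and Prss8 (46.8 against 21.4, 2.18-fold). The lower genes were the scaffold Mpdz (14.8 against 33.3, 2.25-fold) and the polarity kinase Prkci (32.7 against 71.5, 2.19-fold). Genes over 100 CPM short of 2-fold included the scaffolds Tjp1 (199 and 167 CPM in p63-KO and wild type), Magi1 (448 and 256), Magi3 (279 and 158), Patj (259 and 213), Pard3 (331 and 545) and Mpp5 (115 and 80.7). The adhesion proteins F11r (138 and 148) and Cxadr (126 and 71.4), and the protease inhibitors Spint1 (168 and 143) and Spint2 (1050.5 and 583), also stayed within 2-fold.

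Between wild-type layers more of these genes differed. Of 26 measured, 16 were at least 2-fold higher in superficial-like than in basal-like cells and 1 was lower, beside 12.7% and 29.1% of all genes, with a median log2 ratio of 1.59 against -0.51. Among strand and tricellular proteins these included Ocln (103 against 43.6 CPM, 2.37-fold), Marveld2 (30.6 against 5.97, 5.12-fold), Marveld3 (56.1 against 14.9, 3.78-fold) and Ildr1 (103 against 18.8, 5.48-fold). Among scaffolds and polarity genes they included Tjp1 (385 against 91.2, 4.22-fold), Tjp3 (78.1 against 4.11, 19.0-fold), Cgn (92.1 against 17.8, 5.18-fold), Cgnl1 (86.8 against 2.59, 33.5-fold), Pard6b (4.45-fold) and Magi1 (3.11-fold). The inhibitors Spint1 (11.6-fold) and Spint2 (3.06-fold) and the proteases St14 (2.12-fold) and Prss8 (3.10-fold) were also higher. Mpdz was the gene that was lower, at 1.66 against 44.5 CPM.

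In the Cryab-led p63-KO cells, 18 of 26 measured genes of these lists exceeded wild-type basal-like cells by at least 2-fold and 1, Mpdz, was lower, beside 13.7% and 10.7% of all genes, with a median log2 ratio of 1.45. Against wild-type superficial-like cells, the Krt13-high cells had 2 higher (Lsr and Jam2) and 2 lower, among them Cgnl1, of 26 measured, beside 17.6% and 7.92% of all genes, with a median of -0.02. In neuroendocrine-like cells 2 of 28 were higher (Jam3 and Mpdz) and 11 lower (among them F11r, Jam2, Tjp3, Cgn, Cgnl1, Pard6b, Prkci, Magi1, Magi3 and Prss8) than in other p63-KO epithelial-like cells, beside 22.4% and 14.7% of all genes, with a median of -0.64. In ionocyte-like cells 1 of 27, Cgnl1, was higher (179 against 23.5 CPM, 7.64-fold) and none lower, beside 4.95% and 5.55% of all genes.

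Of 9 transcription factors of epithelial differentiation in the lists, none was at least 2-fold higher in p63-KO and 2 were lower: Grhl3 (17.6 against 60.4 CPM, 3.42-fold) and Ovol1 (15.1 against 32.5, 2.16-fold), beside 14.1% and 7.9% of all genes. Between wild-type layers, 6 were higher in superficial-like cells, Grhl1 (16.6-fold), Elf3 (10.7-fold), Ehf (6.14-fold), Ovol1 (5.74-fold), Grhl3 (5.58-fold) and Klf4 (2.48-fold), and Grhl2 and Ovol2 were 2.26-fold and 2.97-fold lower, beside 12.7% and 29.1% of all genes. In the Cryab-led cells Grhl1, Elf3 and Ehf were at least 2-fold higher than in wild-type basal-like cells and none was lower, beside 13.7% and 10.7% of all genes. In the Krt13-high cells, Ovol2 was 3.43-fold higher than in wild-type superficial-like cells, and Grhl3, Ovol1 and Grhl1 were 3.79-fold, 3.49-fold and 2.13-fold lower, beside 17.6% and 7.92%. In neuroendocrine-like cells 6 of the 9 (Grhl1, Grhl2, Grhl3, Klf5, Elf3 and Ehf) were lower than in other p63-KO epithelial-like cells and none was higher, beside 14.7% lower and 22.4% higher of all genes.

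The 22 other claudin genes of the matrices were near 0 in the epithelium. Of these, 6 had no UMI in the epithelial-like cells of either library and none reached 5 CPM over all epithelial-like cells. In single cell states, Cldn5, the claudin of vessels, had 300 CPM in p63-KO endothelial-like cells with 0 wild-type and 14 p63-KO epithelial-like UMIs, Cldn34c1 had 26.8 CPM in Foxi1-led ionocyte-like cells, and the pore-forming Cldn2 had 13.2 CPM in p63-KO ciliated-like cells.

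Markers of other cell types were summed in the same epithelial-like cells. The fibroblast markers came to 49.1 CPM in wild-type cells (5.09 to 118 over subclusters) and 563 CPM in p63-KO cells (270 to 1181), the smooth muscle or pericyte markers to 3.62 and 27.1 CPM, the neural or glial markers to 6.79 and 50.6 CPM, and the immune markers to 5.27 and 13.97 CPM, with Tyrobp and C1qa at 0 in wild type. The lung or tracheal markers came to 9.28 and 1.22 CPM, with Nkx2-1 at 0 in p63-KO, and the gastric markers to 1.21 and 4.79 CPM, with Gkn2 at 0 in both. Beside this, p63-KO fibroblast-like cells had all claudins together at 54.2 CPM, with Cldn3 at 5.21, Cldn4 at 2.95, Cldn7 at 4.87 and Cldn10 at 15.6 CPM, all far below the pooled epithelial-like cells of that library, though Cldn10 was at 7.07 CPM in Pyy-led cells. Cldn12, like Cldn1 in fibroblast-like cells, was higher outside the epithelium, at 14.8, 18.3 and 16.8 CPM in fibroblast-like, endothelial-like and smooth muscle or pericyte-like cells, above its 5.57 CPM in p63-KO epithelial-like cells, and the part of other cells' RNA in its epithelial level was not tested.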

How the data were processed

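Single cells of the esophageal epithelium were profiled in 1 wild-type and 1 p63-KO library. The deposited values are whole-number UMI counts per gene and barcode. Cell Ranger 7.1.0 and build mm10 were used, per the submitters' processing notes, with a 3' droplet kit, per the labels' protocols. For annotation release, strand and introns, the way of counting is not given in the sources used here. Wild type had 6034 barcodes (76472445 UMIs in total) and p63-KO had 2821 (86504624 UMIs).

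Kept were barcodes of 500 or more genes, 1000 or more UMIs and no more than 10% mitochondrial UMIs (5787 and 2422). Doublets were scored against simulated ones, and 268 and 47 were removed. Cells were clustered jointly and the epithelial-like cells again per library at Leiden resolution 0.6, on 2000 variable genes without any claudin, 30 components and 20 neighbours (Python 3.11.15, numpy 2.4.6, scipy 1.17.1, pandas 2.3.3, scikit-learn 1.9.0, leidenalg 0.10.2, igraph 0.11.9, matplotlib 3.10.9). A cluster was named where at least 3 listed markers were in at least 25% of its cells and, for subclusters, 2-fold above the rest. Failing that, a subcluster needed 3 markers, and the first of the list, in at least 25% of its cells. The median log2 ratio of the listed markers to the rest also had to be positive. The larger wild-type basal-like, the Slit3-led and the p63-KO S phase-like subclusters were named in this weaker way.

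UMIs were summed per cell group and scaled to CPM. A gene was measured at 5 CPM or more on either side, and called at a 2-fold difference of CPM + 1, which understates weak genes, while folds in the text are of CPM. Intervals are exact 95% Poisson (CPM), conditional binomial (folds) and Clopper-Pearson (shares). The limit beside a share of 0 is that of 3 counts. For shares, cells were thinned to 2000 UMIs, and 83 wild-type and 23 p63-KO cells too shallow for this were left out. On simulated counts for p63-KO over wild type, with 11504 genes tested, all 100 genes raised and all 100 lowered 4-fold were called, and 0 of 11304 unchanged genes. Both sides were drawn from a shared profile with counting error only. The simulation therefore checks the calculation and says nothing about differences between single libraries, animals or cell make-up.

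Named are all members, the listed tight junction genes and transcription factors past 2-fold, tight junction genes over 100 CPM between the libraries, and the 3 genes most correlated with each member. Pals1 is listed in the matrices as Mpp5. Genes leading a subcluster, and Sst and Pyy, were named after their values were seen. Values of some genes that the rule takes are not given. The members and lists were chosen with earlier results of these data known.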

Additional observations from a re-analysis of the deposited data

How the results depend on the processing

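Of 80 counts of claudins or tight junction genes recomputed under other settings, 68 stayed within 1.5 times of the reported count and 12 did not. The 2 claudins higher in p63-KO became 1 with 5 CPM added in place of 1, with members from 20 CPM on, and without ciliated-like, neuroendocrine-like and ionocyte-like subclusters. The log2 ratio of Cldn6 was 0.75 with 5 CPM added. The 2 tight junction genes lower in p63-KO became 1 when every cell weighed equally, with 5 CPM added, without cells over 50000 UMIs, and over cells with an Epcam or Cdh1 UMI. The 2 claudins lower in superficial-like cells became 1 with no doublets removed and with members from 20 CPM on. The 4 claudins lower in neuroendocrine-like cells became 2 with no doublets removed, where Cldn3 and Cldn4 had log2 ratios of -0.65 and -0.71. In ionocyte-like cells, where none was lower, 1 was lower when every cell weighed equally (Cldn3, -1.26) and 2 without cells over 50000 UMIs. The settings that leave out deep cells or cell states, and all settings for neuroendocrine-like and ionocyte-like cells, were chosen after seeing the data. The cause was not tested where counts moved, apart from settings that measure fewer genes or cells by construction.

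Of the single-gene values, 183 moved by less than counting error and 108 by more. Shares of cells with a UMI grow with the thinning depth: with 1000 and 5000 UMIs in place of 2000, Cldn1 was in 2.28% and 11.6% of wild-type cells, Cldn4 in 12.4% and 41.9% of wild-type and 9.42% and 39.0% of p63-KO cells, and Cldn3 in 9.53% and 21.0% against 41.6% and 87.2%. Over all settings the log2 ratio between the libraries ran from -4.53 to -2.37 for Cldn1 and from 1.39 to 2.04 for Cldn3, and that between superficial-like and basal-like cells from 6.55 to 7.40 for Cldn3, 4.70 to 6.37 for Cldn23 and -3.22 to -2.25 for Cldn1. Cldn23 ranged from -0.14 to 0.50 between the libraries, so its direction there was not set. Depth limits Cldn6 and Cldn12, which stayed under 10 CPM in wild-type cells. No paired analysis was possible because each group had 1 library, and for the same reason no replicate could be left out.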
